A study of Mus musculus with 8 samples.

Results

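Muscle stem cells, or satellite cells, were examined here nucleus by nucleus in the gastrocnemius, a muscle of the mouse calf, using the 4 libraries of the study that were made with 10x Genomics droplets. A nucleus was taken as a muscle stem cell nucleus when it held at least 3 UMIs of Pax7, Calcr, Chodl, Megf10 and Fgfr4 together, from at least 2 of these 5 genes and with at least 1 UMI of Pax7, and no UMI of Pdgfra, Pecam1 or Ptprc. UMIs are molecular tags, 1 per captured RNA molecule, so that copies made by PCR are not counted again, and Pdgfra, Pecam1 and Ptprc mark fibro-adipogenic progenitors, endothelial cells and leukocytes. The gate, meaning this set of conditions, passed 891 of 47059 retained nuclei of the 4 libraries (1.89%), with 417 in Young, 194 in Old, 57 in Sedentary and 223 in Running. The study compared the muscle of old and young mice and of mice that had run on a treadmill and mice that had not, and it holds 64803 retained nuclei in 8 libraries. Per its methods the mice were C57BL/6, aged 3 months in Young and 20 months in Old, while Running and Sedentary mice were 11 months old at the start and Running mice then ran for 2 months. The sex of these mice and the number pooled in a library are not given in the sources used here. Each group had 1 10x library, so no comparison below has a replicate or a test, and the 95% intervals given are exact intervals that cover counting error only.

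Satellite cells lie between the fibre membrane and the basal lamina of the muscle fibre and carry the transcription factor Pax7. In resting adult muscle they are quiescent, a state that Notch receptors and the calcitonin receptor (Calcr) help to hold. After injury they enter the cell cycle with Myod1, and their progeny switch on Myog and fuse with the fibres, or return to the niche as Pax7-positive cells.

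The 10x libraries held between 23390969 UMIs in Sedentary and 44454427 in Running. The median depth of retained nuclei was 1664 UMIs in Sedentary against 2790 to 3001 in the others. Stem cell nuclei were shallower than the average nucleus, with a median of 1938 UMIs in Young, 1852.5 in Old, 1189 in Sedentary and 1699 in Running. The share of mitochondrial UMIs had a median of 0.253% to 0.459% in stem cell nuclei and of 0.0704% to 0.224% in the other nuclei of the 4 libraries. Summed over the nuclei they gave 948198, 443631, 88534 and 515826 UMIs in the same order, so that Sedentary was the least precise of the 4. Between 30 and 46 cell barcodes were shared by any pair of libraries, and none of the shared barcodes belonged to a stem cell nucleus in both.

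The gate rested on more than its minimum in most nuclei. A stem cell nucleus held a median of 10 UMIs of the 5 gate genes in Young, 8 in Old, 5 in Sedentary and 9 in Running, with the highest nucleus at 36. All 5 genes were detected together in 23.3% of the nuclei in Young, 22.2% in Old, 8.77% in Sedentary and 13.5% in Running. Pax7 alone, with no second gate gene, was found in 145, 95, 149 and 108 nuclei of Young, Old, Sedentary and Running, which the gate left out. In nuclei of other classes a UMI of Pax7 was rare, at between 0.312% and 2.58% of fibro-adipogenic progenitor, endothelial and Type IIb myonuclei. Nuclei that passed the gate had been taken out of these classes, so these shares are a description and no support for the gate. A UMI of Pdgfra, the receptor that marks fibro-adipogenic progenitors, removed 10, 20, 0 and 14 nuclei in the same order of libraries. Pecam1, an endothelial adhesion molecule, removed another 9, 6, 3 and 4, and Ptprc, the leukocyte antigen CD45, another 4, 3, 1 and 0.

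The label was read beside 17 satellite cell genes outside the gate. Their summed level, in UMIs per 1000000 UMIs of the same nuclei (CPM), was 4175 in Young, 3992 in Old, 3253 in Sedentary and 3486 in Running, against 802, 922, 664 and 733 CPM in all other nuclei of these libraries. Nuclei at the edge of the gate bore the same genes at a somewhat lower level. Those with exactly 3 gate UMIs (16 in Young, 9 in Old, 13 in Sedentary and 9 in Running) summed to between 3100 and 3938 CPM, and those just outside with 2 UMIs from 2 genes (11, 13, 20 and 12 nuclei) to between 1484 and 2053 CPM. Nuclei with Pax7 alone and none of the 3 exclusion genes lay near the level of other nuclei, at 738 to 1025 CPM.

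Of the 17 genes, 14 reached 100 UMIs over the stem cell nuclei, and 12 of these were higher than in the other nuclei in all 4 libraries. The background was 1847 of 4029 genes with as many UMIs (45.8%). Ncam1, a neural cell adhesion molecule, stood at 1222 CPM in Young, 1319 in Old, 1344 in Sedentary and 828 in Running. Notch3, a Notch receptor, stood at 822, 757, 712 and 806 CPM, and Fgfr1, an FGF receptor, at 672, 748, 361 and 655 CPM. Vcam1, an adhesion molecule of satellite cells, followed at 283, 180, 102 and 248 CPM, and Heyl, a target of Notch, at 161, 113, 113 and 126 CPM. Both genes that were lower in stem cell nuclei in all 4 libraries are also used by muscle fibres or other cells: Des, the intermediate filament desmin of muscle fibres, at 67.8 to 129 CPM, and Met, the receptor of hepatocyte growth factor, at 67.6 to 129 CPM. Of the 14 markers, which the gate had not used, 7 were at least 4-fold higher in all 4 libraries. The contrast with other nuclei is a description and no test of the label. The nuclei were chosen by their RNA, and the list with earlier results of these data known.

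Muscle stem cell nuclei were set apart by genes outside the gate as well. With at least 100 UMIs, 164 of 4029 genes (4.07%) outside the gate were at least 4-fold higher than in the other nuclei in all 4 libraries, and none was 4-fold lower in all 4. Hs6st3, a heparan sulfate 6-O-sulfotransferase, led with 4941 CPM in Young, 9129 in Old, 8686 in Sedentary and 4818 in Running, against 31.3 to 80.9 CPM in the other nuclei. It was detected in 90.2% of stem cell nuclei in Young, 99.5% in Old, 92.98% in Sedentary and 91.0% in Running, the widest detection among the 19 leading genes shown, in every library. Its level had an order of Running and Young below Sedentary and Old, and each value rested on at least 769 UMIs.

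**Figure D1:**
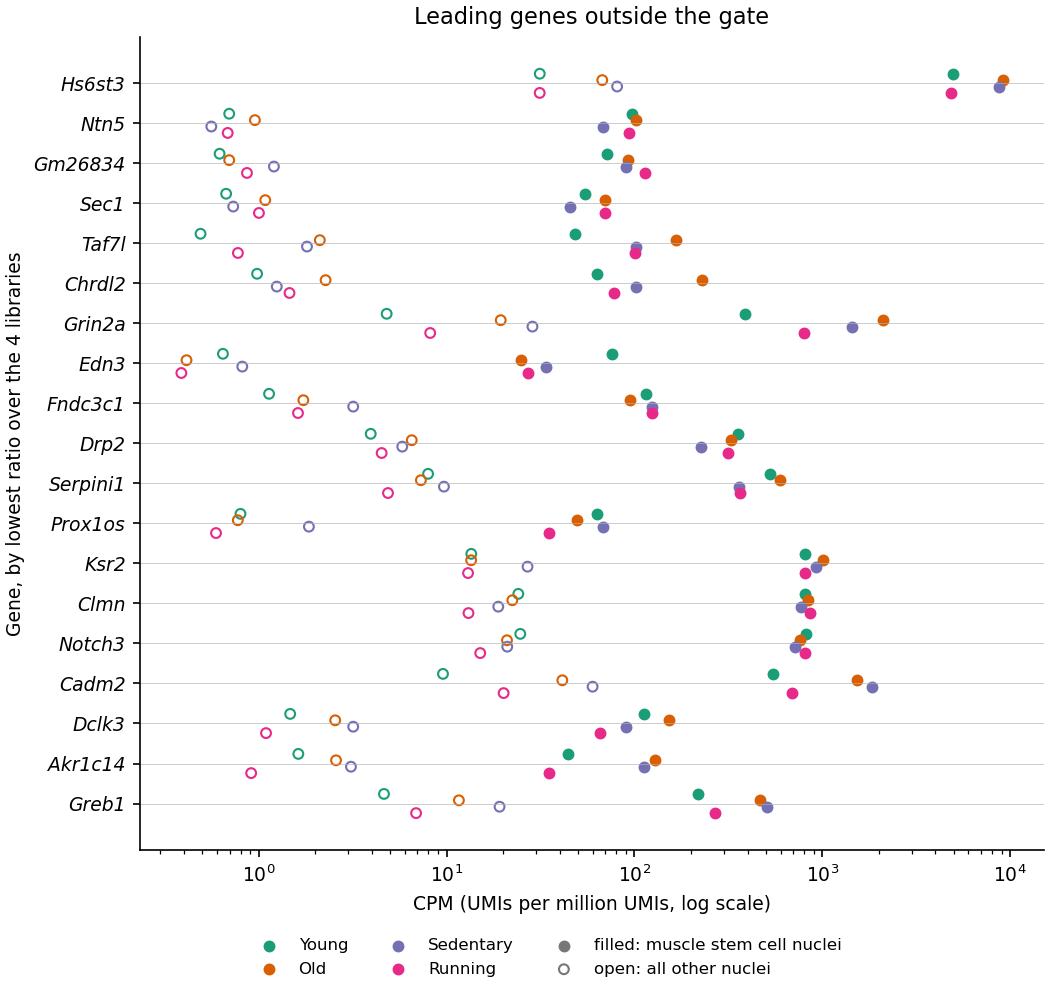
CPM (UMIs per 1000000 UMIs, log axis) of 19 of the 20 genes outside the gate with the highest lowest ratio to other nuclei over the 4 10x libraries. Filled points are muscle stem cell nuclei, open points all other retained nuclei of the same library, and colours are the libraries, with every filled point to the right of its open point and Hs6st3 farthest right at 4818 to 9129 CPM.

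Grin2a, Cadm2 and Serpini1, better known from neurons, were among the leading genes. Grin2a (chromosome 16, 9567898 to 9995560, GRCm38), which encodes a subunit of the NMDA glutamate receptor, stood at 390 CPM in Young, 2094 in Old, 1434 in Sedentary and 797 in Running, against 4.80 to 28.7 CPM elsewhere. Cadm2, an immunoglobulin-type adhesion molecule, stood at 545, 1522, 1841 and 686 CPM against 9.57 to 59.9 CPM. Serpini1, the protease inhibitor neuroserpin, stood at 527, 597, 361 and 364 CPM against 4.88 to 9.68 CPM. Grin2a and Cadm2 were both higher in Old and Sedentary than in Young and Running, while Serpini1 was lowest in Sedentary and Running.

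The other leading genes had varied functions. Ksr2, a scaffold of the Ras-MAP kinase pathway, was even over the libraries at 808 CPM in Young, 1014 in Old, 926 in Sedentary and 810 in Running. Clmn, an actin-binding membrane protein, was as even at 806, 839, 768 and 865 CPM. Drp2, a relative of dystrophin, lay at 354, 327, 226 and 314 CPM. Chrdl2, a secreted binder of bone morphogenetic proteins, was highest in Old, at 230 CPM against 63.3 in Young, 102 in Sedentary and 77.5 in Running. Edn3, the peptide endothelin 3, was highest in Young, at 75.9 CPM against 24.8 in Old, 33.9 in Sedentary and 27.1 in Running. Akr1c14, an aldo-keto reductase, and Greb1, an estrogen-responsive growth regulator, were both higher in Old and Sedentary than in Young and Running, at 44.3, 128, 113 and 34.9 CPM and at 218, 467, 508 and 269 CPM. Taf7l, a relative of a general transcription factor subunit, was highest in Old, at 48.5, 167, 102 and 101 CPM, and Dclk3, a doublecortin-like kinase, lay at 113, 153, 90.4 and 65.9 CPM. The Sedentary values of Akr1c14, Chrdl2, Taf7l and Dclk3 rest on 8 to 10 UMIs each and that of Edn3 on 3. Their place in the order of libraries is thus uncertain. The leading genes Gm26834, Sec1, Fndc3c1 and Prox1os, lay between 34.9 and 124 CPM, and Prox1os is annotated antisense to Prox1, from which it cannot be told apart without strand. Ntn5, a netrin family member, was nearly absent from other nuclei, at 0.559 to 0.955 CPM, and stood at 67.8 to 101 CPM in stem cell nuclei. Prox1, better known as a lymphatic endothelial regulator, was present at 271, 169, 226 and 188 CPM against 8.43 to 14.2 CPM in other nuclei, while Mmrn1, another lymphatic marker, had at most 3 UMIs in any of the 4 libraries.

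Fibre genes were low but not absent, as in other mononuclear classes of the same libraries. Of 13 myofibre genes with at least 100 UMIs, 12 were lower than in the other nuclei in all 4 libraries, and so were 9 of 10 genes of glycolysis and lactate, the exception being Hk1, the hexokinase of most tissues outside muscle, at 52.3 to 90.4 CPM. The background was 746 of 4029 genes with as many UMIs (18.5%). Titin (Ttn) reached 6695 CPM in Young, 11444 in Old, 11103 in Sedentary and 14224 in Running, against 33366 to 46090 CPM in the other nuclei. The 14 myofibre genes took a median of 0.332% of a stem cell nucleus's UMIs in Young, 0.583% in Old, 0.819% in Sedentary and 0.911% in Running. The median was 0.219%, 0.442%, 0.737% and 0.688% in fibro-adipogenic progenitor nuclei, and 0.323%, 0.637%, 0.862% and 0.985% in endothelial nuclei. The libraries thus had the same order of fibre RNA in stem cell and endothelial nuclei. No UMI of Myh1, Myh2, Myh4 or Myh7 was found in 178 stem cell nuclei of Young, 58 of Old, 21 of Sedentary and 39 of Running.

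Markers of other mononuclear cells were sparse apart from a few shared genes. The 7 genes of fibro-adipogenic progenitors summed to 2235 CPM in Young, 3341 in Old, 1807 in Sedentary and 2319 in Running, against 11666 to 19540 CPM in progenitor nuclei themselves. Abca8a, a lipid transporter on that list, made up much of the sum with 1334, 1355, 1242 and 1345 CPM, and was higher than in the other nuclei in all 4 libraries, so it is no marker that separates these cells. Endothelial genes summed to 79.1 to 180 CPM against 3847 to 4981 CPM in endothelial nuclei, and immune genes to 33.9 to 69.8 CPM against 137 to 433 CPM in all other nuclei. Sox10, a Schwann cell gene, was at 0 in all 4 libraries. Xist was present in stem cell nuclei of all 4 libraries, at 1525 to 2297 CPM, and the Y-linked genes Ddx3y, Uty, Kdm5d and Eif2s3y were at 0.

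The lists of satellite cell pathways are read against all genes, of which 45.8% were higher than in the other nuclei in all 4 libraries and 18.5% lower. Of 8 quiescence genes with at least 100 UMIs, 5 were higher than in the other nuclei in all 4 libraries and 2 at least 4-fold. Foxo1, a forkhead factor that restrains growth, stood at 692 CPM in Young, 588 in Old, 757 in Sedentary and 644 in Running, and Foxo3, its relative, at 335, 243, 384 and 200 CPM. Spry1, an inhibitor of FGF signalling that holds satellite cells at rest, stood at 114, 110, 33.9 and 85.3 CPM, with only 3 UMIs behind the Sedentary value. Of 10 Notch pathway genes, 8 were higher in all 4 libraries, 3 of them at least 4-fold. The 22 genes of that list summed to 2653 to 3151 CPM in stem cell nuclei. The sums were of like size in other mononuclear classes, at 2462 to 2978 CPM in progenitor and 2422 to 3341 CPM in endothelial nuclei. Beside Notch3, the receptor Notch2 stood at 429, 255, 192 and 252 CPM, the coactivator Maml2 at 486, 532, 915 and 502 CPM, and Numb, which antagonises Notch, at 334, 221, 305 and 269 CPM. Rbpj, the DNA-binding partner of Notch, was lower than in other nuclei in 3 of 4 libraries, at 169 to 237 CPM with log2 ratios of -1.24 to 0.07. Ligands were scarce: Jag1, the ligand with the most UMIs, stood at 34.9 to 56.5 CPM, and Dll1 had 15, 4, 0 and 1 UMIs.

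In the list of the calcitonin receptor and Hippo arm, Yap1 and Wwtr1, the coactivators that the Hippo kinases restrain, stood at 149 to 226 and 235 to 262 CPM. The collagen chain Col5a2, on the same list, stood at 113 to 312 CPM. Of 8 genes of this list with at least 100 UMIs, 6 were higher than in the pooled other nuclei in all 4 libraries, against 45.8% of all genes. None of them was 4-fold higher. The 12 genes of the list summed to 1152 to 1338 CPM in stem cell nuclei. Progenitor nuclei were higher in every library, at 1626 to 2536 CPM, and endothelial nuclei lay at 1119 to 1577 CPM. The receptor's accessory proteins were at the limit of detection, with 0 to 13 UMIs of Ramp2, 0 to 3 of Ramp1 and none of Ramp3.

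Among receptors for growth factors, 6 of 17 were higher than in other nuclei in all 4 libraries and 5 were lower, against 45.8% and 18.5% of all genes. Tgfbr3, the TGF-beta coreceptor betaglycan, was highest at 2578 CPM in Young, 2455 in Old, 2745 in Sedentary and 1702 in Running. Igf1r, the receptor of insulin-like growth factor, stood at 1102, 981, 1355 and 847 CPM, and Egfr, the receptor of epidermal growth factor, at 766, 532, 497 and 533 CPM. Ghr, the growth hormone receptor, was lower than in other nuclei, at 1358, 850, 1220 and 1613 CPM with log2 ratios of -1.20 to -0.69. Of the other FGF genes, Fgfr2 was lower than elsewhere in all 4 libraries, at 369 to 699 CPM, and the FGF target Etv5 was higher, at 117, 33.8, 45.2 and 98.9 CPM.

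Adhesion and niche genes were higher than in the pooled other nuclei in 9 of 10 cases, against 45.8% of all genes. The 21 genes of the list summed to 4744 to 6301 CPM in stem cell nuclei. Progenitor nuclei were higher in every library, at 6896 to 8987 CPM, so this level is not particular to stem cell nuclei. Lama2, a chain of muscle laminin, stood at 1963 CPM in Young, 1569 in Old, 1649 in Sedentary and 1832 in Running, and Dag1, the laminin receptor dystroglycan, at 1302, 624, 633 and 684 CPM. Lamc1, another laminin chain, stood at 339 to 485 CPM, and Cdh15, the cadherin of satellite cells, at 117, 110, 33.9 and 75.6 CPM. The Sedentary value of Cdh15 lay at the floor of 3 UMIs. Dystroglycan was thus highest in Young, with the other three libraries close together. In the list of polarity and dystrophin complex genes 2 of 10 were higher and 6 lower, against 45.8% and 18.5% of all genes. Dmd, dystrophin itself, stood at 6752 to 12425 CPM with log2 ratios of -1.05 to -0.59 to the pooled other nuclei. At 1000 UMIs a nucleus it was found in 97.2% to 99.5% of stem cell nuclei (99.0% to 100% unthinned). In each library this was above the share of progenitor (39.7% to 96.9%) and endothelial nuclei (53.0% to 95.7%). Utrn, its relative utrophin, stood at 570 to 688 CPM and was higher than in the pooled other nuclei in all 4 libraries. Pard3, a polarity protein, stood at 474 to 578 CPM on either side of equality.

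Markers of activation and differentiation were found in few nuclei. Myf5, a myogenic factor already present in many resting satellite cells, was found in 155 of 891 stem cell nuclei (17.4%, interval 15.0 to 20.05) against 0.723% of the other nuclei. By library its share was 16.5% in Young, 23.2% in Old, 10.5% in Sedentary and 15.7% in Running, with intervals that overlapped between every pair of libraries. Myod1, which marks activation, was found in 31 nuclei (3.48%, interval 2.38 to 4.90), against 2.27% of other nuclei. At 1000 UMIs a nucleus it was found in 1.75% of stem cell nuclei in Young (4.08% unthinned), 0 of 186 in Old (interval up to 1.96%, 1.55% unthinned), 2.70% in Sedentary (3.51% unthinned) and 1.98% in Running (4.04% unthinned), against 0.149% to 0.518% of progenitor nuclei. Myog, which marks differentiation, was found in 2 nuclei (0.224%) against 0.990% of other nuclei. Mymk and Mymx, which drive fusion, had a UMI in 0 of 891 nuclei, which allows a share of nuclei with a UMI of up to 0.413% and sets no limit on the share that expresses them.

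Markers of dividing cells were rare, while Ccnd3 and Ccnd1 were present. Mki67, the proliferation antigen, was found in 3 of 891 nuclei and Top2a, a topoisomerase of dividing cells, in 1, against 0.425% and 0.399% of other nuclei. Ccnd3, a cyclin of the D type, was the only one of the 16 activation and cell cycle genes with at least 100 UMIs, at 380 CPM in Young, 354 in Old, 441 in Sedentary and 279 in Running, and it was higher than in other nuclei in all 4 libraries. Ccnd1, a related cyclin, was found in 4.04% of nuclei against 0.994% elsewhere. Ccnd2, also of the D type, went the other way, in 4 nuclei (0.449%) against 3.19% elsewhere. The cell cycle inhibitor Cdkn1b was found in 11.1% against 6.54%, while Cdkn1a and Cdkn2a, inhibitors used as senescence markers, were found in 4 and 2 nuclei. Of the senescence and secreted factor list, Trp53 alone reached 100 UMIs, at 45.2 to 74.4 CPM, followed by Lmnb1, a lamin, at 11.3 to 55.9 CPM. The 11 immediate early genes, which can rise during tissue dissociation, were low: Klf6 led with 15.5 to 67.8 CPM, and Fos had 0 to 6 UMIs a library.

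At equal depth the number of genes per stem cell nucleus was close in the 4 libraries. After thinning each nucleus to 1000 UMIs, stem cell nuclei held a median of 721 genes in Young, 745 in Old, 722 in Sedentary and 737 in Running. The other nuclei held 636, 689, 649 and 653 genes, and fibro-adipogenic progenitor nuclei between 715 and 732.

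The share of stem cell nuclei was lower in Old than in Young and higher in Running than in Sedentary. It was 3.54% in Young (interval 3.21 to 3.88), 1.66% in Old (1.44 to 1.91), 0.538% in Sedentary (0.408 to 0.697) and 1.72% in Running (1.5 to 1.95). The share in Old was 2.13-fold lower than in Young (interval 1.79 to 2.54), and that in Running 3.19-fold higher than in Sedentary (2.37 to 4.34). Thinned to 1000 UMIs, with 429, 888, 2292 and 1074 shallower nuclei left out in Young, Old, Sedentary and Running, the shares passing the gate were 2.45%, 1.04%, 0.265% and 1.19%. The order of the libraries was the same at equal depth.

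Other classes moved in these libraries as well, and a share depends on all of them. Fibro-adipogenic progenitor nuclei made up 11.7% of Young, 17.9% of Old, 2.34% of Sedentary and 11.9% of Running. Counted per 100 progenitor and endothelial nuclei, there were 26.8 stem cell nuclei in Young and 8.02 in Old, and 14.1 in Sedentary and 12.6 in Running. Per 100 progenitor nuclei alone there were 30.2 in Young, 9.25 in Old, 23.0 in Sedentary and 14.4 in Running, and per 100 endothelial nuclei alone 237, 60.4, 36.8 and 99.6. Old was below Young on every base, while Running was below Sedentary per progenitor nucleus and above it per endothelial nucleus. How far the yield of mononuclear nuclei set the shares was not tested.

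**Figure D2:**
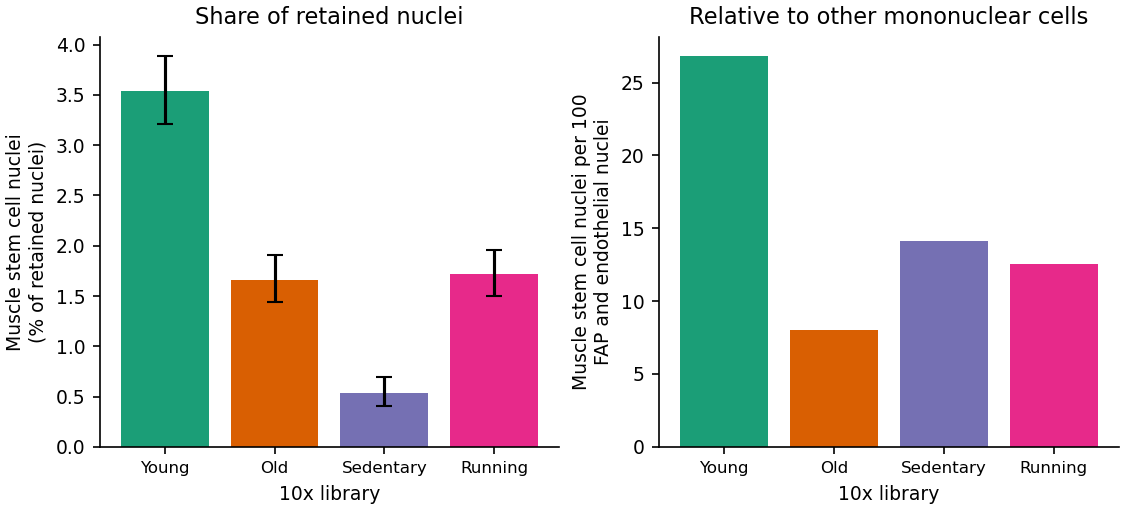
Share of stem cell nuclei among retained nuclei (left, percent) and number of stem cell nuclei per 100 fibro-adipogenic progenitor and endothelial nuclei (right) in the 4 10x libraries, as bars. Whiskers on the left are exact 95% binomial intervals, and the order changes between panels: Running lies above Sedentary on the left (1.72% against 0.538%) and just below it on the right (12.6 against 14.1).

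In the second set of libraries, made with the DNBelab C system, the same gate passed 9 of 17744 nuclei (0.0507%), 3 in Young, 4 in Old, 1 in Sedentary and 1 in Running. Pax7 itself was found in 58 nuclei of Young, 103 of Old, 15 of Sedentary and 34 of Running there. These numbers are too small to say whether the shares differed between groups in that set.

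The gate genes can be compared between libraries only in nuclei that were chosen without them. Read in nuclei chosen by the other 4 genes, Pax7 (chromosome 4, 139737062 to 139833528, GRCm38) stood at 1362 CPM in Young and 818 in Old, a log2 ratio of -0.74 (interval -0.90 to -0.58). Megf10, a receptor that takes part in satellite cell growth and engulfment, stood at 757 and 479 CPM (-0.66, interval -0.89 to -0.44). Neither difference reached 2-fold, while the intervals of Calcr (435 and 407 CPM), Chodl (1272 and 1304 CPM) and Fgfr4 (618 and 566 CPM) included equality.

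Between Sedentary and Running another set of gate genes differed. Chodl, a membrane lectin of satellite cells, stood at 680 CPM in Sedentary and 1479 in Running (log2 1.12, interval 0.73 to 1.54), the only gate gene past 2-fold. Fgfr4, an FGF receptor of the myogenic lineage, stood at 454 and 730 CPM (0.68, 0.16 to 1.25), and Calcr was lower in Running, at 400 and 233 CPM (-0.78, -1.35 to -0.17). Pax7 (814 and 986 CPM) and Megf10 (487 and 453 CPM) had intervals that included equality. The Sedentary values rest on 48 to 51 nuclei a gene.

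**Figure D3:**
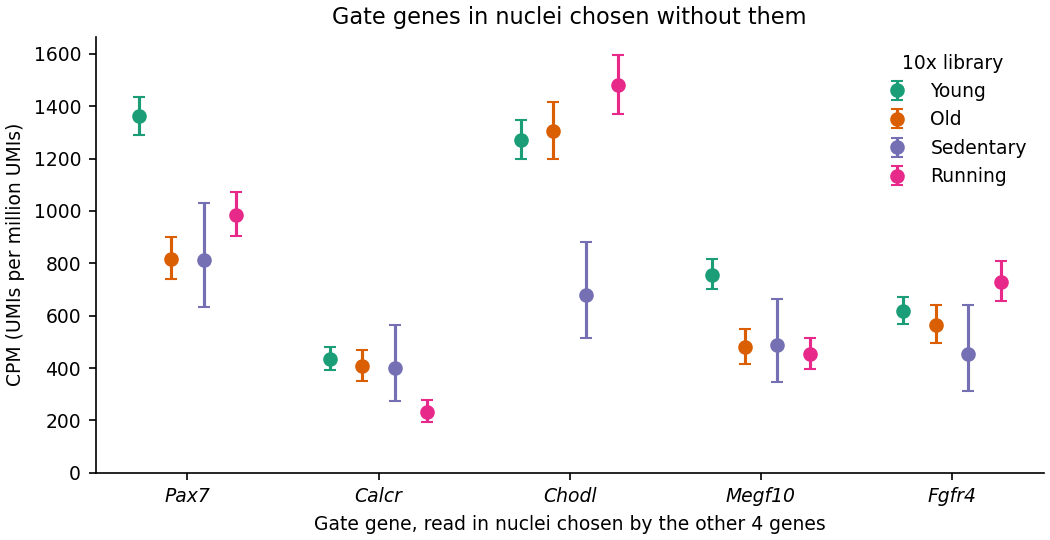
CPM of each gate gene in nuclei that passed the gate on the other 4 genes, in the 4 10x libraries. Points are summed values, bars are exact 95% Poisson intervals, and Pax7 (1362 CPM in Young, 814 to 986 in the others) and Chodl (680 CPM in Sedentary, 1272 to 1479 in the others) each have 1 library apart.

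Old stem cell nuclei were compared with Young ones gene by gene. With at least 50 UMIs over both libraries, 212 of 5143 genes (4.12%) were at least 2-fold higher in Old and 190 (3.69%) at least 2-fold lower, and the median log2 ratio was -0.04. The interval excluded equality for all 212 and for 185 of the 190. In all other nuclei 78 of the 212 and 18 of the 190 differed by as much in the same direction. TMM scaling shifted every log2 ratio by -0.09 and turned the split into 171 higher and 251 lower, so that the balance between higher and lower genes depended on the scaling.

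Grin2a, Anxa3, Hpse2 and Slc24a2 were among the genes named as higher in Old. Grin2a, introduced above, was 2.42 higher on the log2 scale (interval 2.25 to 2.60), with 370 UMIs in 86 nuclei of Young and 929 UMIs in 148 nuclei of Old, and the other nuclei differed almost as much (2.02). Anxa3, a calcium-dependent membrane-binding annexin, differed by 2.81 (2.41 to 3.21), from 73.8 to 516 CPM, against 0.69 in the other nuclei. Hpse2, a relative of heparanase without its enzyme activity, differed by 2.30 (1.97 to 2.65), from 109 to 536 CPM, against 0.84. Slc24a2, a sodium, calcium and potassium exchanger, differed by 2.55 (2.02 to 3.11), from 42.2 to 248 CPM, against 2.89. At 1000 UMIs a nucleus, Anxa3 was found in 41.4% of stem cell nuclei in Old (58.8% unthinned), against 17.7% of progenitor and 27.4% of endothelial nuclei, and in Young in 8.27% (12.2% unthinned), against 9.96% and 23.2%. The differences of Anxa3 and Hpse2 were thus larger in stem cell nuclei than elsewhere, and those of Grin2a and Slc24a2 were of like size in both.

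Btla stood farthest from the behaviour of the other nuclei. This gene (chromosome 16, 45224315 to 45257670), known as an inhibitory receptor of lymphocytes, had 2 UMIs in 1 of 417 nuclei in Young and 58 UMIs in 34 of 194 nuclei in Old. The log2 ratio was 5.95 (interval 4.04 to 9.03) against -0.09 in the other nuclei. It was present in Sedentary and Running too, with 10 UMIs in 6 nuclei and 90 UMIs in 52 nuclei, so that Young was the library apart. No nucleus held more than 6 of these UMIs.

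The remaining genes named as higher in Old were also found in other classes. Ostn, the secreted peptide musclin, had 0 UMIs in Young and 55 in 22 nuclei in Old, 29 of them in 1 nucleus, which against a floor of 3 UMIs in Young is a log2 ratio of 5.29, at least 4.95 after counting error. The ratio was 4.21 without the top nucleus and 4.04 without the deepest 6% of nuclei. It is also abundant in other nuclei, at 30.6 CPM in Young and 286 in Old. Mecom, a zinc finger transcription factor, differed by 4.65 (3.20 to 6.58), from 4.22 to 106 CPM. Adam22, an ADAM family protein without protease activity, differed by 2.87, the sodium channel Scn7a by 2.82, the phosphodiesterase Pde1a by 2.74 and the ubiquitin hydrolase Usp50 by 2.71. At 1000 UMIs a nucleus, Mecom was found in 5.91% of stem cell nuclei in Old (12.4% unthinned), below both the 27.8% of progenitor and the 83.2% of endothelial nuclei. Scn7a was found in 14.0% (22.7% unthinned) and Pde1a in 13.4% (23.7% unthinned), which lay below the 28.6% and 18.2% of progenitor nuclei and above the 1.75% and 1.05% of endothelial nuclei. The share of Adam22 was 11.3% (19.1% unthinned), against 5.20% of progenitor and 12.6% of endothelial nuclei, and that of Usp50 was 11.3% (22.2% unthinned), against 7.75% and 8.42%.

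**Figure D4:**
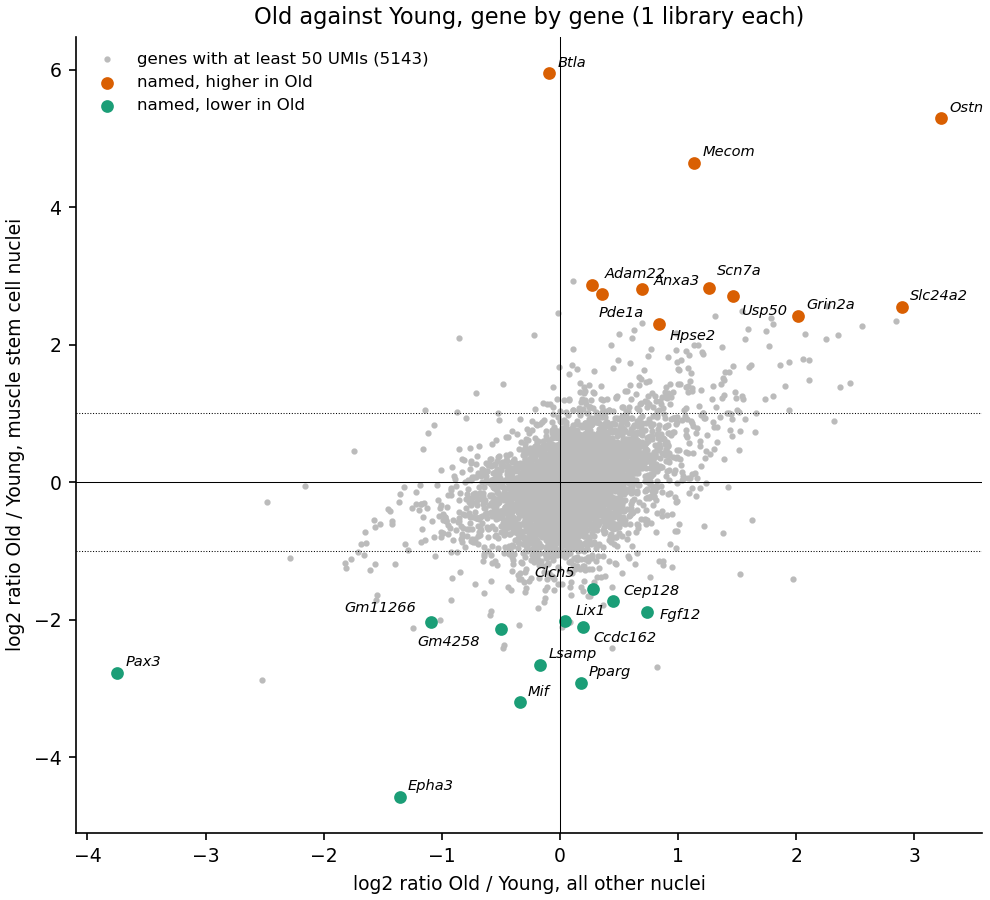
Log2 ratio of CPM, Old over Young, in muscle stem cell nuclei (vertical) against that in all other nuclei of the same libraries (horizontal), for 5143 genes with at least 50 UMIs. Coloured points are the named genes and dotted lines mark 2-fold in stem cell nuclei. Btla lies at 5.95 on the vertical and -0.09 on the horizontal axis, Pax3 at -2.77 and -3.75, and Ostn is drawn at 5.29, its value against the floor of 3 UMIs.

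The genes named as lower in Old included Pax3. This gene, the paralogue of Pax7 that acts in some adult satellite cells, had 73 UMIs in 52 nuclei of Young and 5 UMIs in 5 nuclei of Old (log2 -2.77, interval -4.44 to -1.48). It stood at 67.8 CPM in Sedentary and 114 in Running, and in the other nuclei the log2 ratio of Old to Young was -3.75. Clcn5, an endosomal chloride and proton exchanger, was lower by a log2 of -1.56 (-1.86 to -1.27), from 738 to 250 CPM, against 0.28 in the other nuclei. Ccdc162, a coiled-coil gene, was at 360 and 83.4 CPM (-2.11, -2.64 to -1.62, against 0.20), and Cep128, a centriole protein, at 315 and 94.7 CPM (-1.74, -2.24 to -1.27, against 0.45). Lix1, a gene expressed in muscle progenitors, was at 174 and 42.8 CPM (-2.02, -2.79 to -1.33, against 0.04), and Fgf12, an intracellular FGF relative, at 210 and 56.4 CPM (-1.90, -2.56 to -1.29, against 0.74). Clcn5, Ccdc162, Cep128, Lix1 and Fgf12 were lower in Old in stem cell nuclei and not in the others.

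Mif, a cytokine, had 59 UMIs in 49 nuclei of Young and 3 in 2 nuclei of Old (-3.20, -5.52 to -1.58), but only 1 UMI in Sedentary and 5 in Running, so Young was again the library apart. The genes Gm4258 and Gm11266, which have no described function, were lower by -2.14 and -2.04, and Gm11266 was also lower in the other nuclei (-1.09). For 3 further genes 1 nucleus held most of the UMIs. Of the 51 UMIs of Epha3, an ephrin receptor, 50 came from 1 nucleus of Young, as did 242 of the 256 of Lsamp, a neural adhesion molecule, and 57 of the 113 of Pparg, the adipogenic nuclear receptor. Without its top nucleus in each library, Lsamp was higher in Old (log2 1.20) and Pparg was still lower (-2.39), while without the deepest 6% of nuclei Pparg was higher (2.91).

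The gene lists are read against all genes tested, of which 4.12% were 2-fold higher and 3.69% 2-fold lower in Old. A list of this size with no such gene is near that share. Of the 15 satellite cell genes outside the gate with enough UMIs, none was 2-fold higher and 2 were lower, Pax3 and Sdc4, a heparan sulfate proteoglycan of satellite cells (87.5 and 42.8 CPM, log2 -1.03, interval -1.83 to -0.30). The list's median was -0.11, close to the -0.04 of all genes. None of 8 quiescence genes and none of 11 Notch genes passed 2-fold in either direction, with medians of -0.35 and -0.38. Notch2, with a log2 ratio of -0.75 (interval -1.07 to -0.45) against -0.09 in the other nuclei, was the Notch gene with the interval farthest from equality, and it was picked out after its values were seen. Of 7 FGF genes, Etv5 (-1.79, interval -2.68 to -1.01, against 0.36 in the other nuclei) and Sdc4 were lower. Of 13 adhesion genes, Dag1 was lower (-1.06, -1.25 to -0.87) and Cdh2, the cadherin N-cadherin, higher (1.01, 0.28 to 1.74). Among 17 growth factor receptors Fzd4, a Wnt receptor, was lower (-1.07, -1.90 to -0.32), and among 12 polarity and dystrophin complex genes Sgcb, a sarcoglycan, was lower (-1.04, -2.20 to -0.03). Of the 8 calcitonin receptor and Hippo genes, Col5a3, a collagen chain, was higher (1.04, 0.57 to 1.51).

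The metabolic lists that bear on the study's subject, histone lactylation, held no gene past 2-fold between Old and Young, where 4.12% of all genes were higher and 3.69% lower, and a count of 0 in lists of this size is near those shares. Of the 12 glycolysis and lactate genes none passed, and the median was -0.10. Aldoa, an aldolase, stood at 297 and 264 CPM, Eno3, the muscle enolase, at 166 and 183, and Pkm, pyruvate kinase, at 157 and 131. Ldha, lactate dehydrogenase A, stood at 86.5 and 49.6 CPM (log2 -0.80, interval -1.55 to -0.11), against -0.83 in the other nuclei. Of the 8 enzymes that write or erase lactylation none passed, and their median was -0.63: Crebbp, an acyltransferase, stood at 600 and 476 CPM (-0.34, -0.57 to -0.10), Ep300, its relative, at 218 and 138 CPM (-0.67, -1.10 to -0.25), and Kat2b, another acyltransferase, at 228 and 142 CPM (-0.68, -1.11 to -0.27). None of 7 JAK-STAT and p38 genes passed, with Stat5b at 487 and 363 CPM and Stat3 at 257 and 178 CPM.

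Transcripts of other cells differed between Old and Young in the same nuclei. Of 13 myofibre genes, Myh2, the Type IIa myosin, was higher in Old (log2 2.35, against 2.85 in the other nuclei), as was Mylk4, a myosin kinase (518 and 1839 CPM), and Myh1, the Type IIx myosin, was lower (-1.45). Of 5 progenitor genes, Dcn, the proteoglycan decorin, was higher at 83.3 and 376 CPM and Gsn, gelsolin, at 491 and 1321 CPM, with log2 ratios of 2.18 and 1.43 against 0.98 and 1.36 in the other nuclei. Dcn was found in 10.6% of stem cell nuclei in Young and 48.5% in Old. The part of such RNA in the differences listed above was not tested.

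Several of these differences stood at equal depth. Among nuclei thinned to 1000 UMIs (399 in Young, 186 in Old, 37 in Sedentary and 202 in Running), Grin2a was found in 17.5% of stem cell nuclei in Young, 67.7% in Old, 67.6% in Sedentary and 34.2% in Running, and before thinning in 20.6%, 76.3%, 64.9% and 41.3%. At most 2.07% of progenitor nuclei held it. Cadm2 was found in 23.3%, 53.2%, 64.9% and 36.1%. Ccdc162 ran the other way, with 27.3% in Young, 8.06% in Old, 8.11% in Sedentary and 23.3% in Running, and Clcn5 with 49.1%, 23.1%, 29.7% and 30.7%. Before thinning, Cadm2 was found in 32.6%, 65.5%, 57.9% and 45.7%, Ccdc162 in 38.6%, 13.4%, 15.8% and 36.3%, and Clcn5 in 64.7%, 36.1%, 31.6% and 46.6%. Btla was found in 0.251% of thinned nuclei in Young, 11.3% in Old, 2.70% in Sedentary and 15.3% in Running, against 0.0743% to 1.04% of progenitor nuclei, and unthinned in 0.240%, 17.5%, 10.5% and 23.3%.

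**Figure D5:**
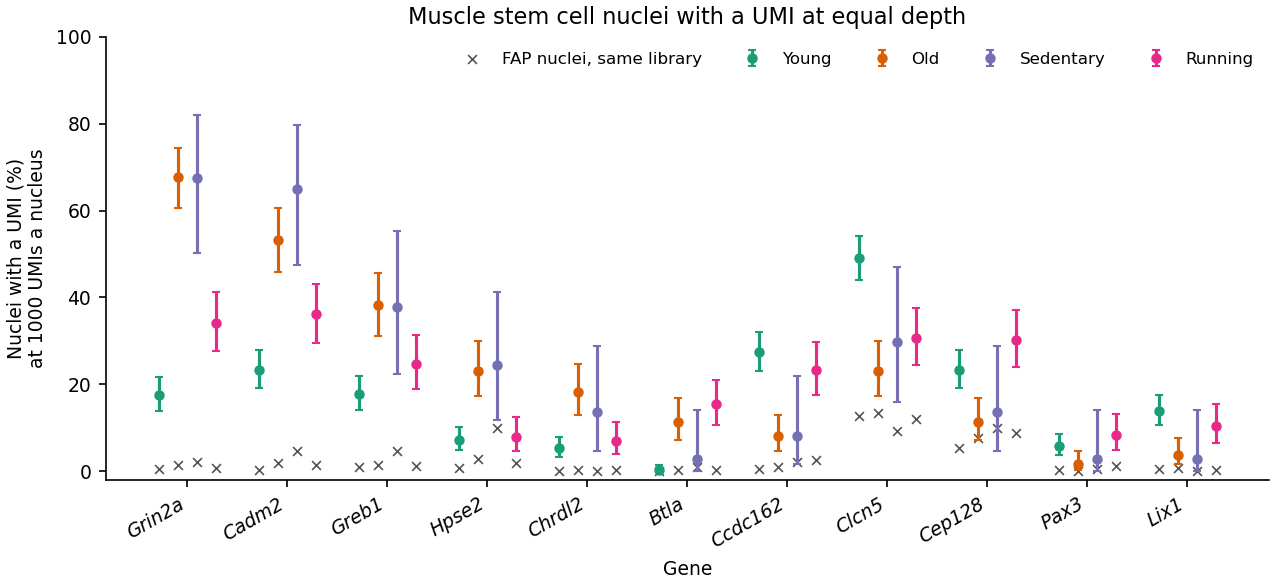
Percent of stem cell nuclei with at least 1 UMI of each gene after thinning every nucleus to 1000 UMIs, by 10x library, with exact 95% binomial intervals. Crosses are fibro-adipogenic progenitor (FAP) nuclei of the same library. Grin2a lies at 17.5% in Young and 67.7% in Old and Ccdc162 at 27.3% and 8.06%, all above the crosses of their library.

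Running stem cell nuclei were compared with Sedentary ones, of which there were only 57. With at least 50 UMIs over both libraries, 230 of 2624 genes (8.77%) were at least 2-fold higher in Running and 68 (2.59%) at least 2-fold lower. The interval excluded equality for 140 of the 230 and all of the 68, and 40 and 13 differed by as much in the other nuclei. The Sedentary library gave 88534 UMIs against 515826, so a gene high in Running could pass the minimum with almost no UMI in Sedentary.

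Among the genes named as higher in Running, 6 encode fibre proteins or enzymes of fibres. Acta1, skeletal actin, stood at 215 CPM in Sedentary and 1060 in Running (log2 2.30, interval 1.65 to 3.05), against 2.32 in the other nuclei. Tnnc2 and Tnni2, troponins of fast fibres, stood at 33.9 and 242 CPM and at 56.5 and 283 CPM, Mylpf, a fast myosin light chain, at 79.1 and 376 CPM, Ampd1, the AMP deaminase of muscle, at 113 and 543 CPM, and Ankrd23, an ankyrin repeat protein of the sarcomere, at 33.9 and 231 CPM. In the other nuclei these 5 genes differed by log2 1.47 to 3.19. At 1000 UMIs Acta1 was found in 62.4% of stem cell nuclei in Running (83.0% unthinned) against 53.2% of progenitor and 65.0% of endothelial nuclei, and in 18.9% in Sedentary (24.6% unthinned) against 17.1% and 20.7%, so that in both libraries its share lay between those of the other classes.

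The other genes named as higher in Running had few UMIs in Sedentary. Errfi1, a feedback inhibitor of the EGF receptor, had 3 UMIs in Sedentary and 119 in Running (33.9 and 231 CPM, log2 2.77, interval 1.19 to 5.07, against 1.22 in the other nuclei). Hmgb1, a chromatin protein, had 0 and 53 UMIs, which against a floor of 3 UMIs in Sedentary is a log2 ratio of 1.60, at least 1.25 after counting error, against -0.21 in the other nuclei. It stood at 131 CPM in Young and 94.7 in Old, so Sedentary was the library apart. Frmpd4, a postsynaptic scaffold protein, had 1 and 98 UMIs, 30 of them in 1 nucleus, and at 1000 UMIs its share in Running was 6.93% (11.2% unthinned) against 24.0% of progenitor and 1.09% of endothelial nuclei. Of the 57 UMIs of Iigp1, an interferon-inducible GTPase, 53 came from 1 nucleus of Running. Gm47283 stood at 147 and 826 CPM (2.49, 1.70 to 3.41, against 2.31). It is annotated on chromosome Y at 90784738 to 90816464, far from Ddx3y (1260771 to 1286629), which was at 0 in these nuclei. The source of its counts was not tested.

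Genes lower in Running had more UMIs behind them. Hpse2 stood at 836 CPM in Sedentary and 132 in Running (log2 -2.67, interval -3.16 to -2.17, against -1.68 in the other nuclei). Cadm2 stood at 1841 and 686 CPM (-1.42, -1.70 to -1.15, against -1.57). Map2, a microtubule-associated protein, stood at 847 and 318 CPM (-1.41, -1.82 to -0.9998), against 0.07 in the other nuclei, and at 711 and 726 CPM in Young and Old. At equal depth its share was 51.4% in Sedentary (interval 34.4 to 68.1, 57.9% unthinned) and 29.7% in Running (23.5 to 36.5, 40.4% unthinned), against 5.17% and 1.64% of endothelial nuclei. Mylk4 stood at 2304 and 843 CPM (-1.45), a fibre gene that was as much lower in the other nuclei (-1.31).

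Fut8, which adds the core fucose of N-glycans, stood at 463 and 136 CPM (-1.77, -2.35 to -1.18, against -0.54). Trerf1, a transcriptional regulator, stood at 237 and 65.9 CPM, E2f3, a cell cycle transcription factor, at 248 and 71.7, and Mthfd1l, a mitochondrial folate enzyme, at 248 and 71.7, each with 21 or 22 UMIs in Sedentary. Immp2l, a mitochondrial peptidase subunit, stood at 1886 and 808 CPM and Gm26917, an unnamed transcript, at 2835 and 1016. Gm10800 and Gm10801 (1175 and 126 CPM, and 373 and 42.7 CPM) belong to a near-identical family and their counts are uncertain.

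By list, the counts are read against the 8.77% of all genes that were 2-fold higher and the 2.59% that were 2-fold lower in Running. Of 13 myofibre genes 7 were higher and 1 lower in Running, with a median of 1.03 against 0.85 in the other nuclei. Of 8 glycolysis and lactate genes 4 were higher: Aldoa (1.31, interval 0.46 to 2.29), Pkm (1.28, 0.18 to 2.63), Ldha (1.36, -0.07 to 3.29) and Pgam2, the muscle phosphoglycerate mutase (1.13, -0.31 to 3.06), against 0.69 to 1.26 in the other nuclei. The intervals of Ldha and Pgam2 include equality. Of 8 satellite cell genes outside the gate Vcam1 was higher (1.29, 0.32 to 2.45), and none was lower. None of 5 quiescence genes, 7 Notch genes or 13 growth factor receptors passed 2-fold. Of 7 calcitonin receptor and Hippo genes Col5a2 (1.47) and Col5a3 (1.60) were higher, as they were in the other nuclei (1.69 and 2.37). Of 5 JAK-STAT and p38 genes Socs2, a suppressor of cytokine signalling, was lower (-1.35, -2.06 to -0.59, against 0.72), and none of 3 lactylation enzymes passed. Mef2d, a muscle transcription factor, was higher (1.43, 0.25 to 2.91), the one called among 3 commitment genes, while Mef2c (892 and 950 CPM) and Mef2a (407 and 312 CPM) were not.

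The 2 comparisons share no library, so their genes can be set side by side. Of 2613 genes with enough UMIs in both, 103 were higher in Old and 66 lower in Running, and 11 were both. The 11 were 10.7% of the first, against 2.53% of all these genes lower in Running. They were 16.7% of the second, against 3.94% of all these genes higher in Old. Among the 11 were Aff2, Bicd1, Bmpr1b, Cadm2, Hpse2, Mylk4, Prkg1, Ptprk, Rcan2 and Trp63. Trp63, a relative of p53, stood at 54.8 CPM in Young, 174 in Old, 260 in Sedentary and 107 in Running, and Bmpr1b, a receptor of bone morphogenetic proteins, at 93.9, 246, 328 and 140 CPM. In the reverse direction 48 were lower in Old and 224 higher in Running, and 16 were both. The 16 were 33.3% of the first, against 8.57% of all genes higher in Running. They were 7.14% of the second, against 1.84% of all genes lower in Old. Among the 16 were Ccdc162, Cep128, Lix1, Etv5, Errfi1, Hif1a, the oxygen-sensing factor, and Ppargc1a, the coactivator of mitochondrial genes, the last at 60.1 CPM in Young, 29.3 in Old, 56.5 in Sedentary and 124 in Running.

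Genes that moved the same way in both comparisons numbered 19 for higher in Old and in Running and 1 for lower in both. The 19 were 18.4% of those higher in Old, against 8.57% of all genes higher in Running. They were 8.48% of those higher in Running, against 3.94% of all genes higher in Old. The 1 gene was 2.08% of those lower in Old, against 2.53% of all genes lower in Running. It was 1.52% of those lower in Running, against 1.84% of all genes lower in Old. Over the same 2613 genes in the other nuclei, 69 were higher in Old and 57 lower in Running, and 15 were both. In the reverse direction 40 were lower in Old and 90 higher in Running, and 16 were both, while 7 were higher in both comparisons. Opposite moves in the 2 comparisons were thus not particular to stem cell nuclei. Of the 11 and the 16 genes named for stem cell nuclei, 1 and 2 were so in the other nuclei too. Running and Sedentary mice were both 13 months old at the end, and with 1 library a group a difference between groups cannot be told apart from one between libraries.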

How the data were processed

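Single-nucleus libraries of gastrocnemius were analysed, 1 10x library for each of the 4 groups. The values used are UMI counts without normalisation, deposited as 1 filtered matrix a library. Per the submitters' processing notes and the study's methods, reads were counted with Cell Ranger 6.1.2 on mm10 and analysed with Seurat 4.1.1, and the second set was made with DNBelab C and PISA. Whether intronic reads were counted is not given in the sources used here. Symbols listed more than once were summed, which left 32245. Retained nuclei had over 200 but below 6000 detected genes, with a mitochondrial share of UMIs below 6%. The study states no doublet removal, and doublets were kept, with an alternative without the deepest 6% of nuclei.

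Counts were summed over stem cell nuclei in each library and divided by all their UMIs, per 1000000 (CPM). Genes were called at 2-fold with at least 50 UMIs over both libraries, and at 4-fold in all 4 libraries with at least 100 UMIs against the other nuclei. The 103 mitochondrial and ribosomal protein symbols were left out. Intervals are exact at 95% (Poisson, Clopper-Pearson, or conditional for ratios), and a count of 0 was set to a floor of 3 UMIs. Shares at equal depth used nuclei thinned to 1000 UMIs. Other classes were gated on their own markers. Named genes were the gate genes, the 2 to 4 genes of each of 26 lists (287 genes) with the most UMIs, the 20 leading genes, and per comparison up to 12 called genes on each side, ranked by the interval bound nearest to equality. Some named items are not reported here. Other called list members, genes at or near 0, and Trp63, Bmpr1b, Hif1a and Ppargc1a were named after their values were seen. The gate and the lists were chosen with earlier results of these data known. Coordinates are from GENCODE on GRCm38. Counting was checked on simulated counts. Tools were Python 3.11.15, numpy 2.4.6, scipy 1.17.1, pandas 2.3.3 and matplotlib 3.10.9, with R 4.3.3, edgeR 4.0.16 and DESeq2 1.42.0 for scaling factors only.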

Additional observations from a re-analysis of the deposited data

Results flagged for a closer look

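The second library set was used in no comparison of the gene levels, yet nuclei that passed the gate were found there. Old replicate 2 held 4 of 4772 (0.0838%, interval 0.0228 to 0.214), against 3 of 4510 in Young replicate 2, 1 of 4234 in Sedentary replicate 2 and 1 of 4228 in Running replicate 2. The 4 nuclei held a median of 1201.5 UMIs, and 103 nuclei of that library held a UMI of Pax7. What was flagged is a signal in data outside the comparisons, above the level in the Young library of that set by 1 nucleus, which is within counting error.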

How the results depend on the processing

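With 57 nuclei and 88534 UMIs, Sedentary limited every comparison with Running. The log2 share ratio of Old over Young (-1.09) kept its direction in all alternatives of gate, filter and depth, was -1.74 per progenitor and endothelial nucleus and -1.71 per progenitor nucleus, and was 0.33 in the second library set (7 nuclei). That of Running over Sedentary (1.67) was 2.31 with a gate of at least 5 UMIs, 2.17 at 1000 UMIs a nucleus, 0.00205 in the second set (2 nuclei), -0.17 per progenitor and endothelial nucleus and -0.68 per progenitor nucleus. Both bases in other nuclei were added after seeing the data, as was leaving out each gene's top nucleus.

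The 402 genes called between Old and Young became 1109 with a minimum of 20 UMIs, 2644 with none and 231 in nuclei without myosin UMIs, where 81 of the 402 were called again and fewer nuclei were used. The 298 called between Running and Sedentary became 1077, 3427 and 25, the last from 39 and 21 nuclei. The 164 leading genes numbered 132 to 207. Of 182 alternative values of named genes in Old against Young, 164 moved by less than their counting interval and 3 reversed: Lsamp was 1.65 without the deepest 6% of nuclei and 1.20 without its top nucleus, and Pparg 2.91 without the deepest 6%. Of 183 in Running against Sedentary, 155 stayed and 2 reversed: Iigp1 was -1.95 and -2.13 without the deepest nuclei and without its top nucleus. Of the alternative list medians, 86 of 125 in Old against Young and 67 of 90 in Running against Sedentary stayed within counting error. The rest moved, and a change of sign was not scored for list medians. TMM and median-of-ratios scaling shifted log2 ratios by -0.09 and -0.03 in Old against Young and by 0.08 and 0.07 in Running against Sedentary. No paired analysis was possible because each group had 1 10x library and the result comes from no test, and leaving out a library was not possible for the same reason.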
